A study of Mus musculus with 2 samples.

Results

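The nuclear genes of the mitochondrial respiratory chain and of ATP synthase were examined in the livers of CREBH KO and wild-type (WT) mice, fasted and fed. Members were nuclear genes whose symbol starts with Nduf, Uqcr, Cox4, Cox5, Cox6, Cox7, Cox8 or Atp5, together with Sdha, Sdhb, Sdhc and Sdhd, matched to array probes through RefSeq accessions. The rule used no measured value. It matched 115 genes of the annotation, of which 96 were protein-coding and 19 were pseudogenes, and 93 of them had a named probe among 20284 named genes of the array. The 3 protein-coding genes with no named probe were Ndufb1, Ndufb4b and Ndufb4c, and the subunits encoded in mitochondrial DNA had none either and were not analysed here. The 93 members comprised 7 core subunits, 31 accessory subunits and 8 assembly factors of complex I, 4 genes of complex II, 8 of complex III, 18 of complex IV and 17 of ATP synthase. The symbol rule also takes in Ndufa4l2 and Cox7a2l, which are not ordinary structural subunits, and it counts Ndufa4 under complex I although its protein is now placed in complex IV.

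The respiratory chain sits in the inner mitochondrial membrane. Complex I takes electrons from NADH and complex II takes them from succinate, the coenzyme Q pool carries them to complex III, and cytochrome c carries them on to complex IV, where oxygen is reduced. Complexes I, III and IV pump protons out of the matrix, and ATP synthase lets them back through a ring of c subunits that drives the formation of ATP. Most subunits are encoded in the nucleus and have to be made in matching amounts, and in fasted liver the chain takes up the NADH and FADH2 released by fatty acid oxidation.

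Total liver RNA was measured as 1 pool per group on 2 Agilent arrays of 2 colours each, one array for mice fasted for 24 h and one for mice fed ad lib. The fasted array held the fasted CREBH KO pool in Cy5 and the fasted WT pool in Cy3, and the fed array held the fed CREBH KO pool in Cy5 and the fed WT pool in Cy3. All mice were of the C57B6J strain or background. CREBH, encoded by Creb3l3, is a liver-enriched transcription factor anchored in the endoplasmic reticulum. The kind of null allele, the age and sex of the mice and the number of livers in each pool are not given in the sources used here. With 1 pool per group and no dye swap, no test between groups was possible, so that every difference below compares these pools and includes any bias of the dyes. In pooled tissue, fewer cells of a type and less RNA per cell cannot be told apart. Creb3l3 itself had a normalized log2 signal of 12.95 in the fasted KO pool and 15.03 in the fasted WT pool, and of 13.12 in the fed KO pool and 14.00 in the fed WT pool. It was 4.21-fold lower in KO than in WT when fasted and 1.84-fold lower when fed, although the fed log2 ratio was 0.31 when the array was centred on the median of all spots without loess.

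Of the 93 members, 89 were well above background in all 4 channels, a condition met by 11291 of the 20284 named genes. Cox8c and Cox7b2, forms of complex IV subunits known mainly from testis, were above background in none. Cox8b, a heart and skeletal muscle form, was above background only in the fasted WT pool, and Cox6a2, the heart and skeletal muscle form of subunit VIa, in all pools but the fed WT pool. The members had bright spots: the median member ranked at percentile 95.2 of measured genes by mean log2 signal, and 74.2% lay among the brightest 10%. Spot brightness is not an mRNA amount, and it bears on the ratios because loess sets the zero point of a ratio separately at each brightness. Over probes printed 10 times on the array, the median SD of the log2 ratio between spots was 0.079 for KO over WT in the fasted pools and 0.086 in the fed pools, which is spread between spots and not between mice. Uqcrc2, a core protein of complex III named here because its probe is printed 10 times, had log2 KO over WT ratios of -0.06 (fasted; SD over 10 spots 0.056) and -0.00 (fed; SD 0.072).

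The promoters below are shown for 3 genes of the fasting results, chosen after their values and motif matches were seen: Sdhd, one of 2 members at least 0.32 higher on the log2 scale in both genotypes after fasting, and Atp5g3 and Atp5g1, which encode the same c subunit of ATP synthase and stood on opposite sides of 0. Each is the 250 bases before the annotated transcription start on the strand of the gene, from RefSeq on GRCm38.p6. Capitals mark matches to the NRF1, GABP, YY1, ERR and CRE motifs spelled out further on. The Sdhd sequence is at chr9:50603850-50604099 (minus strand), that of Atp5g3 at chr2:73911327-73911576 (minus strand) and that of Atp5g1 at chr11:96075632-96075881 (minus strand).
Sdhd: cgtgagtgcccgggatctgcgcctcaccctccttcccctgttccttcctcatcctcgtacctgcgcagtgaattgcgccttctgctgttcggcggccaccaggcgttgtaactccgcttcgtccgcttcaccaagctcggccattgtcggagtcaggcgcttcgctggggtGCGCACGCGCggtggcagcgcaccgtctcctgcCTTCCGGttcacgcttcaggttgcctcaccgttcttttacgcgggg
Atp5g3: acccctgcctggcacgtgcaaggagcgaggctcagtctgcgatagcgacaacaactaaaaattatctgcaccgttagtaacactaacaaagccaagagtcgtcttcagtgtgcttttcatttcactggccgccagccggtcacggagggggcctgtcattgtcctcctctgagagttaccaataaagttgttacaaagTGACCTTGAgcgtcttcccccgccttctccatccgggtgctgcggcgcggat
Atp5g1: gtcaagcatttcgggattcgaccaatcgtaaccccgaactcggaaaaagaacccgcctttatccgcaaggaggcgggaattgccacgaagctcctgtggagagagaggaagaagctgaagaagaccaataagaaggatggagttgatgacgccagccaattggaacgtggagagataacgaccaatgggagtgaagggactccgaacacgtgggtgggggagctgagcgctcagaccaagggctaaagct
In Sdhd the first run of capitals is a match to the NRF1 motif starting 79 bases before the start and the second is a GABP (ETS) motif on the other strand, 46 bases before it. In Atp5g3 the capitals are a match to the motif of the oestrogen-related receptors (ERR) on the other strand, 52 bases before the start.

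Between genotypes, and with loess, fewer of the members than of measured genes in general differed by much. Without replicates, members were counted by a rule of size, a log2 ratio of 0.32 or more (a ratio of 5 to 4) in either direction. In the fasted pools 3 of 90 measured members (3.33%) differed by that much between KO and WT, 2 higher and 1 lower, against 11.8% of all 12263 measured genes (6.48% higher and 5.34% lower). In the fed pools 2 of 89 (2.25%) did so, 0 higher and 2 lower, against 10.4% of 11377 (5.31% higher and 5.07% lower). This turned round when the arrays were centred on measured spots without loess, where 50 of 90 members when fasted and 70 of 89 when fed passed that size, against 33.7% and 44.8% of all genes. No member differed by 2-fold on either array, a size reached by 0.791% of measured genes when fasted and 0.554% when fed. The interquartile range of the members spanned 0.18 (fasted) and 0.16 (fed) on the log2 scale, against 0.24 for all genes on each array. Across all 4 pairwise comparisons with loess, 62 of 89 members (69.7%) stayed within 0.32 log2 throughout, as did 5680 of 11291 genes (50.3%). Between genotypes, and with loess, the share past 0.32 log2 was 2.6% fasted and 0.0% fed for the mitochondrial ribosome. It was 5.88% and 0.0% for assembly factors outside the symbol rule, and 11.4% and 1.27% for the cytosolic ribosome. The tricarboxylic acid cycle had 14.3% and 0.0%, electron carriers 5.88% and 17.6%, and biogenesis regulators 18.8% and 14.3%. A small share was thus not particular to the members. Genes were not matched for brightness.

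The members' median log2 KO over WT ratio was -0.07 fasted and -0.05 fed, against 0.01 for all measured genes on each array, and centring the arrays on measured spots without loess turned these medians to 0.33 and 0.43 (all genes 0.07 on each). With loess, 66 of 90 members (73.3%) lay below 0 when fasted and 60 of 89 (67.4%) when fed, against 47.2% and 46.9% of all genes. By complex, the medians were lowest for core complex I subunits in the fasted pools (-0.17) and for complex IV in the fed pools (-0.14), and those of the complex I assembly factors were 0.02 fasted and 0.04 fed, all of them above 0 without loess. The sign of these small shared shifts thus depended on how brightness was handled.

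**Figure D1:**
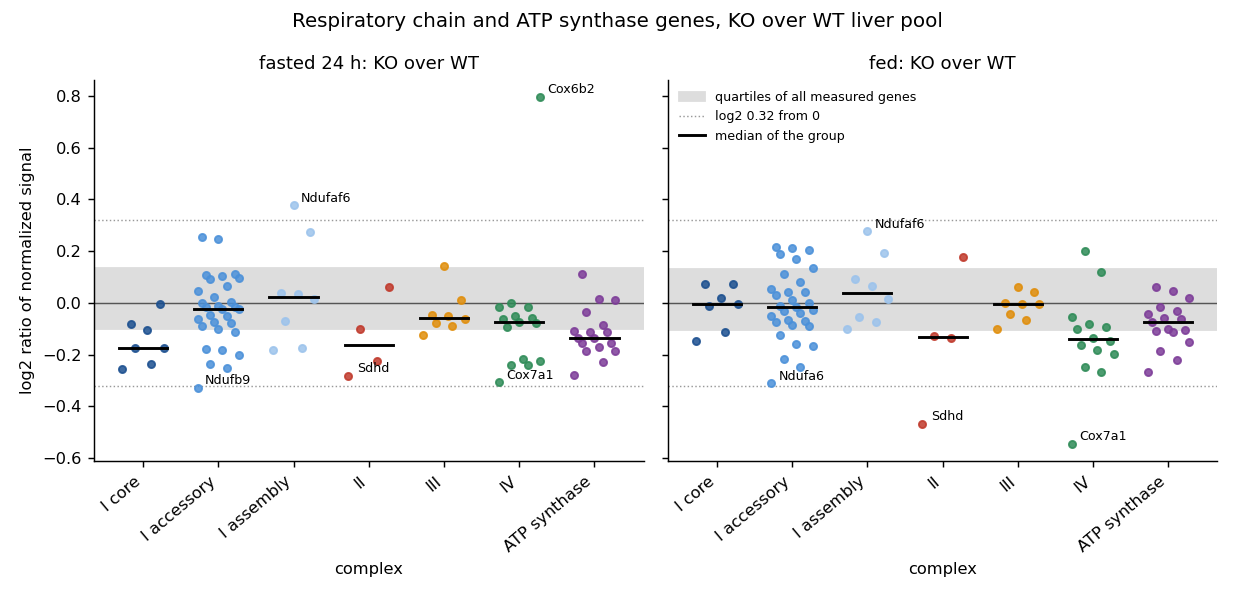
Log2 ratio of normalized signal, KO over WT liver pool, for each measured member (1 point per gene) by complex, on the fasted array (left) and the fed array (right). Black bars are group medians, the grey band runs from the lower to the upper quartile of all measured genes and dotted lines are 0.32 above and below 0. Most members lie near the grey band, with Cox6b2 and Ndufaf6 above 0.32 log2 and Ndufb9 below it when fasted, and Cox7a1 and Sdhd below it when fed.

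Complex II oxidises succinate and is also an enzyme of the tricarboxylic acid cycle. Sdhd, its small membrane anchor, had log2 signals of 13.59 in the fasted KO pool, 13.87 in the fasted WT pool, 13.04 in the fed KO pool and 13.50 in the fed WT pool. Both KO pools were thus below the WT pool of the same feeding state, by 1.22-fold fasted and 1.38-fold fed, and the fed ratio lay past 0.32 log2. The scanner software's own error for 1 spot of this probe was 0.21 log2 on each array, against log2 ratios of -0.28 fasted and -0.47 fed, and the fed ratio was 0.71 with centring on all spots. Sdhc, the other anchor, had log2 KO over WT ratios of -0.22 fasted and -0.14 fed, and Sdha, the flavoprotein that binds succinate, of -0.10 and -0.13. Sdhb, the iron-sulphur subunit, was at 0.06 and 0.18 on its brightest probe and at -0.20 and 0.12 on its second, so its fasted sign differed between probes.

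Complex IV holds several subunits with liver and muscle forms. Cox7a1, the form known from heart, skeletal muscle and brown fat, had log2 signals of 8.07 in the fasted KO pool, 8.38 in the fasted WT pool, 8.66 in the fed KO pool and 9.21 in the fed WT pool. It was 1.24-fold lower in KO when fasted and 1.46-fold lower when fed, the largest fed difference among the members in either direction, although centring on all spots gave a fed log2 ratio of 0.28. Its liver counterpart Cox7a2 differed by only -0.09 log2 on each array. Acta1, Ckm, Mylpf and Tnnt3, of 5 skeletal muscle markers, and Ucp1, Adipoq and Plin1, of 4 brown adipocyte markers, were above background in no channel, and Myh4 and Cidea were so in 1 channel each. The other forms usual in liver, Cox4i1, Cox6a1 and Cox8a, had log2 KO over WT ratios of -0.23, -0.05 and -0.01 in the fasted pools and -0.16, -0.18 and -0.06 in the fed pools. Cox4i2, a form of subunit IV linked to low oxygen and to lung, was at -0.02 fasted and 0.20 fed with a dim signal (6.81 to 7.01). For Cox6a2 the fasted ratio was -0.00 and the fed KO signal was 1.15-fold above that of the fed WT pool, where it was not well above background. The spot error of this probe on the fed array was 0.57 log2, larger than that difference. For Cox8b the signal of the fasted KO pool, not well above background, was 1.09-fold below that of the fasted WT pool. Its spot error on the fasted array was 0.51 log2, again larger than the difference.

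Cox6b2, described in testis as the counterpart of the widespread Cox6b1, stood furthest above 0 among the members. Its log2 signal was 8.19 in the fasted KO pool, 7.39 in the fasted WT pool, 6.90 in the fed KO pool and 6.78 in the fed WT pool. The fasted KO pool was the highest of the 4 and lay 1.74-fold above the fasted WT pool, whereas the fed pools differed by 1.09-fold. The difference between the 2 genotype ratios was 0.68 log2, and the spot error of this probe was 0.22 log2 fasted and 0.26 fed. Both fed signals were dim, and that difference and the fasting ratios of Cox6b2 rest on them. Cox6b1 had log2 KO over WT ratios of -0.06 fasted and -0.13 fed.

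Complex I had few members past 0.32 log2 between genotypes. Ndufaf6, an assembly factor, had log2 signals of 9.18 in the fasted KO pool and 8.81 in the fasted WT pool, and of 9.40 in the fed KO pool and 9.13 in the fed WT pool. It was higher in KO by 1.30-fold fasted and 1.21-fold fed, and was the highest member on the fed array. Ndufb9, an accessory subunit, was the lowest member on the fasted array, at 14.77 in KO and 15.10 in WT (log2 ratio -0.33), and stood at 14.86 in KO and 15.11 in WT when fed. Its fasted log2 ratio was 0.20 with centring on measured spots and 0.70 with centring on all spots. Ndufa6, another accessory subunit, was the lowest of complex I in the fed pools (12.92 in KO and 13.23 in WT, 1.24-fold) and was 1.08-fold lower in KO when fasted.

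The 7 core subunits, which carry the redox centres between NADH and coenzyme Q, had a median fasted log2 KO over WT ratio of -0.17, with all 7 below 0 on that array with loess. On the fed array they lay on both sides of 0, at -0.15 to 0.07. The fasted ratio minus the fed ratio, in which a dye effect that is the same on both arrays cancels, was below 0 for all 7 (median -0.12), against 51.2% of all measured genes below 0 and a median SD of 0.098 between repeated spots for this quantity. For Ndufs8, an iron-sulphur subunit, it was -0.25. Core subunits were picked out here after their values were seen.

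Only Cox6b2 and Ndufaf2 had genotype ratios that differed by at least 0.32 log2 between the fasted and the fed array, 2 of 89 members (2.25%), 1 higher and 1 lower, against 15.5% of measured genes (8.17% higher and 7.31% lower). Ndufaf2, an assembly factor of complex I, had log2 signals of 9.76 in the fasted KO pool, 9.94 in the fasted WT pool, 10.11 in the fed KO pool and 9.92 in the fed WT pool. It was lower in KO when fasted (log2 -0.18) and higher in KO when fed (0.19). Ndufb8, an accessory subunit, was just inside the fold, with log2 KO over WT ratios of 0.25 fasted and -0.07 fed.

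With loess and scaling between the arrays, a smaller share of members than of genes in general was at least 0.32 log2 higher after fasting. In KO, 23 of 90 measured members (25.6%) differed by at least 0.32 log2 between the fasted and the fed pool, 6 higher and 17 lower, against 34.8% of all measured genes (18.4% higher and 16.4% lower). In WT, 13 of 89 (14.6%) did so, 4 higher and 9 lower, against 31.5% (16.8% higher and 14.7% lower). The share of members that was higher was below that of all genes in both genotypes. The share that was lower was 18.9% in KO, near the background. The members' median fasted over fed log2 ratio was -0.09 in KO and -0.06 in WT, against 0.01 for all genes in each. Without normalization between the arrays the median of all genes was 0.45 in KO and 0.46 in WT and that of the members 0.50 in both, so every fasting ratio here is relative to the bulk of measured genes. The counts turned to 65 higher and 0 lower in KO and 73 higher and 0 lower in WT under that setting, and to 3 higher and 30 lower in KO and 8 higher and 3 lower in WT with centring on all spots.

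**Figure D2:**
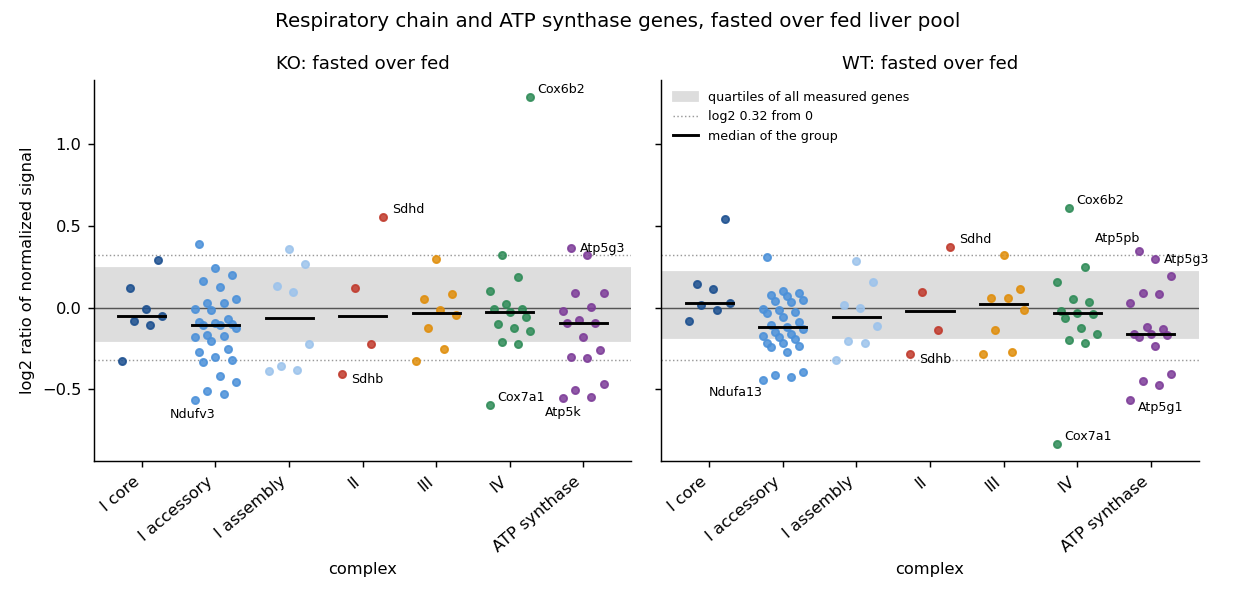
Log2 ratio of normalized signal, fasted over fed liver pool, for each measured member (1 point per gene) by complex, in KO (left) and WT (right). Black bars are group medians, the grey band runs from the lower to the upper quartile of all measured genes and dotted lines are 0.32 above and below 0. Cox6b2 and Sdhd stand above 0.32 log2 in both genotypes, and Cox7a1 and groups of accessory and ATP synthase genes stand below it.

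The same 9 members were at least 0.32 log2 lower after fasting in both genotypes: Atp5e, Atp5g1, Atp5j2, Atp5k, Cox7a1, Ndufa8, Ndufa13, Ndufs5 and Ndufv3. All 9 that passed in WT also passed in KO, where they made up 9 of 17. Of these, 4 belong to ATP synthase and 4 are accessory subunits of complex I, and no core catalytic subunit is among them. Sdhd and Cox6b2 were at least 0.32 log2 higher in both genotypes, 2 of the 4 higher members in WT and 2 of the 6 in KO. No member passed 0.32 log2 in opposite directions. The KO and WT values of a gene come from the same 2 arrays and the same probe. Over all 11291 genes the KO and WT fasting ratios had a Pearson r of 0.80. How many of all measured genes passed in both genotypes was not counted, so these overlaps have no background to be set against. In WT the share of members that was lower was below the 14.7% of all measured genes.

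Among ATP synthase genes, the 3 that encode the identical mature c subunit of the proton-driven ring did not share a direction. Atp5g1 had log2 signals of 14.16 in the fasted KO pool and 14.20 in the fasted WT pool, and of 14.66 in the fed KO pool and 14.76 in the fed WT pool. Both fasted pools were below both fed pools, by 1.41-fold in KO and 1.48-fold in WT. Atp5g3 showed the reverse order, at 15.13 in the fasted KO pool and 15.02 in the fasted WT pool, against 14.77 in the fed KO pool and 14.72 in the fed WT pool. That is 1.29-fold higher after fasting in KO and 1.23-fold higher in WT, so only the KO difference passed 0.32 log2. Atp5g2 differed by 1.01-fold in KO and 1.02-fold in WT. The signals of the 3 probes were not set against each other, so no summed level of subunit c is given.

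Atp5e, the small epsilon subunit of the rotor, was at 14.56 in the fasted KO pool and 14.68 in the fasted WT pool, against 15.11 and 15.13 in the fed KO and fed WT pools. Atp5k, the e subunit of the membrane part, was at 13.57 in the fasted KO pool and 13.68 in the fasted WT pool, against 14.12 and 14.15 in the fed KO and fed WT pools. The e and epsilon genes were 1.47-fold and 1.46-fold lower in fasted KO and 1.39-fold and 1.37-fold lower in fasted WT. Atp5j2, the f subunit, was 1.38-fold lower in KO and 1.33-fold lower in WT. A second probe of Atp5k gave log2 ratios of -0.37 in KO and -0.27 in WT, and a second probe of Atp5j2 gave -0.19 and -0.14, the same direction at smaller size. Atp5b and Atp5a1, the catalytic beta and alpha subunits, had log2 ratios between 0.00 and 0.09 in both genotypes. Atp5pb, the b subunit of the peripheral stalk, was higher, at 12.46 in the fasted KO pool and 12.60 in the fasted WT pool against 12.14 in the fed KO pool and 12.25 in the fed WT pool. It passed 0.32 log2 in WT (1.27-fold) and lay just under it in KO (log2 0.32).

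**Figure D3:**
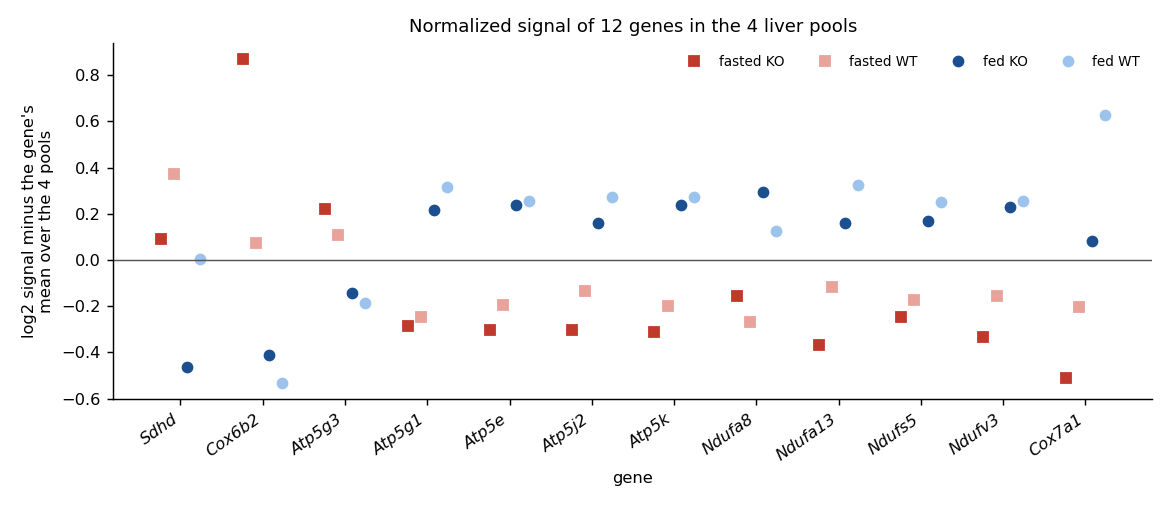
Normalized log2 signal of 12 members in the fasted KO, fasted WT, fed KO and fed WT liver pools (1 value per pool), shown as the difference from each gene's mean over the 4 pools. For Atp5g1, Atp5e, Atp5j2, Atp5k, Ndufa8, Ndufa13, Ndufs5, Ndufv3 and Cox7a1 both fasted pools lie below both fed pools, for Cox6b2, Atp5g3 and Sdhd above them.

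In complex I the members lower in both genotypes were all accessory subunits, which surround the catalytic core. Ndufa13, also known as GRIM-19, was at 15.17 in the fasted KO pool and 15.42 in the fasted WT pool, against 15.69 in the fed KO pool and 15.86 in the fed WT pool. Its annotated locus overlaps Tssk6. Ndufv3, an accessory subunit of the NADH-oxidising module, was at 13.82 in the fasted KO pool and 14.00 in the fasted WT pool, against 14.39 in the fed KO pool and 14.41 in the fed WT pool. Ndufs5 and Ndufa8, accessory subunits of the side facing the intermembrane space, had fasted over fed log2 ratios of -0.42 and -0.45 in KO and -0.43 and -0.39 in WT. Of all 31 accessory subunits, 6 were at least 0.32 log2 lower and 1 higher in KO, and 4 lower and 0 higher in WT, so that the lower share was 19.4% in KO and 12.9% in WT, near the 16.4% and 14.7% of all measured genes. The one that was higher in KO was Ndufb8 (log2 0.39), whose WT ratio was 0.07. Ndufb4 and Ndufa4l2 were lower past 0.32 log2 in KO (-0.33 and -0.51), with WT ratios of -0.22 and -0.24.

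Core subunits had median fasted over fed log2 ratios of -0.05 in KO and 0.03 in WT. Ndufs8 was at 10.81 in the fasted KO pool and 10.99 in the fasted WT pool, against 11.14 in the fed KO pool and 11.07 in the fed WT pool. Its ratios were -0.33 in KO, past 0.32 log2, and -0.08 in WT. Among the 8 assembly factors, which help to build complex I but are not part of it, Ndufaf1, Ndufaf2 and Ndufaf5 were at least 0.32 log2 lower in fasted KO (log2 -0.38, -0.36 and -0.39) and had WT ratios of -0.22, 0.01 and -0.20. Ndufaf8 was higher in fasted KO (0.36) with a WT ratio of 0.29.

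Sdhd was the highest member outside complex IV after fasting in KO, at 13.59 fasted and 13.04 fed (1.47-fold), and in WT it stood at 13.87 fasted and 13.50 fed (1.29-fold). Sdhb stood opposite to it in the same complex, at 14.48 in the fasted KO pool and 14.42 in the fasted WT pool, against 14.88 in the fed KO pool and 14.70 in the fed WT pool, which is 1.32-fold lower in KO and 1.22-fold lower in WT. A second probe of Sdhb did not bear this out, with log2 ratios of -0.06 in KO and 0.25 in WT. Sdha and Sdhc had ratios of 0.12 and -0.22 in KO and of 0.09 and -0.13 in WT.

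In complex III, which passes electrons from coenzyme Q to cytochrome c, Uqcrfs1, the Rieske iron-sulphur protein, had the highest ratios, at 0.29 in KO and 0.32 in WT, both just inside 0.32 log2. Uqcr11, a small subunit, was the lowest, at -0.33 in KO and -0.28 in WT, and was the only one of the 8 to pass 0.32 log2. Uqcrc2 was at 0.05 in KO and 0.11 in WT, with SDs over its 10 spots of 0.026 and 0.037.

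In complex IV, Cox6b2, whose fed signals were dim, was 2.44-fold higher after fasting in KO and 1.52-fold higher in WT. It was the only member past 2-fold in any comparison, a size reached upwards by 2.59% of measured genes in KO. Cox7a1 was at the other end, 1.51-fold lower in KO and 1.78-fold lower in WT. Cox7a2l, which takes part in joining complexes III and IV into supercomplexes, had fasted over fed log2 ratios of 0.32 in KO, just past the size rule, and 0.25 in WT, and its 2 other probes gave log2 ratios of 0.26 and 0.81 in KO. Cox4i1, Cox6a1, Cox7a2 and Cox8a, the forms usual in liver, had log2 ratios of -0.12, 0.18, -0.21 and 0.02 in KO and of -0.06, 0.05, -0.22 and -0.02 in WT, all within 0.32 log2. For Cox6a2 the signal of the fasted WT pool was 1.15-fold above that of the fed WT pool, and for Cox8b it was at least 1.09-fold above. Neither was well above background in the fed WT pool, and their spot errors on the fed array were 0.57 and 1.26 log2.

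For 2 further members the choice of probe mattered, and they were picked out after their values were seen. The brightest probe of Ndufb5, an accessory subunit of complex I, gave fasted over fed log2 ratios of -0.07 in KO and -0.01 in WT, and its second probe gave 0.89 and 0.78. The second probe of Cox7c, a small subunit of complex IV, gave log2 KO over WT ratios of -0.33 fasted and -0.59 fed, against -0.06 and -0.08 for the brightest. Of the members past 0.32 log2 after fasting that had another measured probe, 6 of 6 in KO and 4 of 4 in WT had all probes on the same side of 0, and 3 and 2 had all probes past 0.32 log2.

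Over the 89 members, the fasting ratios of KO and WT had a Pearson r of 0.88 (Spearman rho 0.88), and over all 11291 genes 0.80 (0.76). The genotype ratios of the fasted and fed arrays had r = 0.59 (rho 0.64) over the members and 0.26 (0.30) over all genes. These describe spread across genes, which are not independent replicates. The fasting ratios of KO and WT share arrays and probes, and the genotype ratios share probes and dye orientation, so that a probe-specific bias enters both values.

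**Figure D4:**
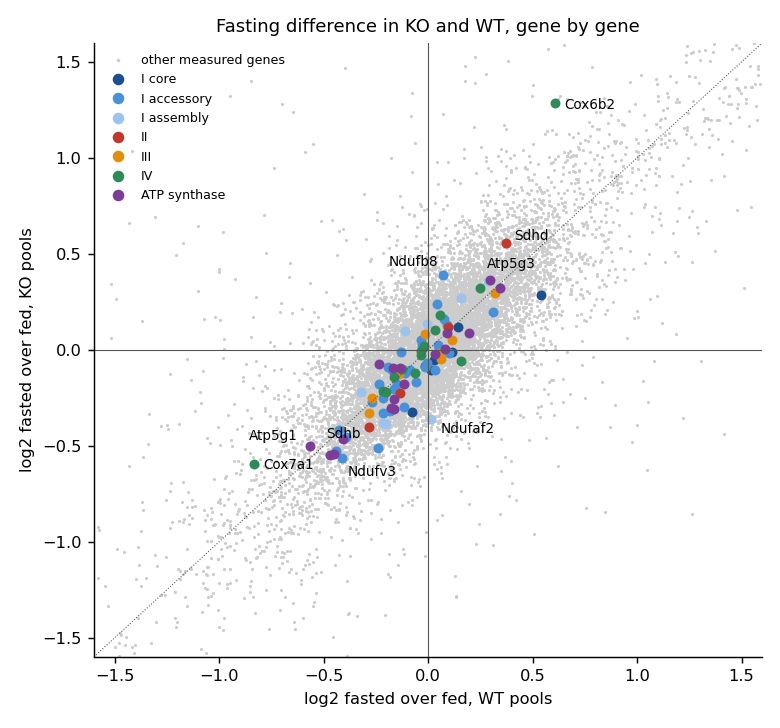
Fasted over fed log2 ratio in KO pools (vertical) against that in WT pools (horizontal), 1 point per measured gene, with members coloured by complex and other genes in grey; the dotted line is equality. Members lie along the line, with Cox6b2 furthest up and Cox7a1 furthest down, and Ndufaf2 below the line.

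Lists of neighbouring pathways were set beside the members. Of 14 genes of the tricarboxylic acid cycle, which makes the NADH and succinate that feed the chain, 6 were at least 0.32 log2 higher and 1 lower in fasted KO (median log2 0.29), and 8 were higher and 1 lower in fasted WT (median 0.42). The succinyl-CoA ligase genes Suclg1, Suclg2 and Sucla2 were at 0.51, 0.84 and 0.42 in KO and at 0.87, 0.78 and 0.66 in WT, while Cs, citrate synthase, was at -0.41 and -0.73. Suclg1 was also lower in KO than in WT among fasted pools (log2 -0.64).

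Regulators of mitochondrial biogenesis were higher in 4 of 15 and lower in 1 of 15 in fasted KO (median 0.07), and higher in 7 of 14 and lower in none in fasted WT (median 0.33). Ppara, the fatty acid receptor that drives oxidation genes, was at 12.66 in the fasted KO pool, 13.39 in the fasted WT pool, 12.45 in the fed KO pool and 12.40 in the fed WT pool, so that the fasted WT pool stood above the other 3. Ppargc1a, the coactivator PGC-1 alpha, had fasted over fed log2 ratios of 0.35 in KO and 0.71 in WT. Tfam, which acts in transcription of mitochondrial DNA, and Tfb1m were at 0.49 and 0.58 in KO and 0.55 in WT for each. All members of these lists were fixed with earlier results of these data known.

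Electron carriers and other entry points to the coenzyme Q pool had medians of 0.09 in KO and 0.01 in WT over 17 genes. Etfdh, which passes electrons from fatty acid oxidation into the pool, was the highest at 1.65 in KO and 1.44 in WT. Its partner Etfb had log2 signals of 15.38 in the fasted KO pool, 15.40 in the fasted WT pool, 14.90 in the fed KO pool and 15.41 in the fed WT pool, the fed KO pool being the low one of the 4. Sqor, which feeds electrons from sulphide, was lower in KO on both arrays (log2 -0.48 fasted and -0.52 fed). Gpd2, of the glycerol phosphate shuttle, was at -0.58 after fasting in KO and -0.12 in WT.

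Assembly factors outside the symbol rule were higher in 11 and lower in 4 of 33 in fasted KO (median 0.08) and higher in 8 and lower in 4 of 33 in fasted WT (median 0.20). Coa6, needed for complex IV, was at 0.81 in KO and 0.65 in WT, and Uqcc2, needed for complex III, at -0.79 and -0.74. The uncoupling protein genes Ucp2 and Ucp3 were at 1.01 and 1.31 in KO and 0.67 and 0.66 in WT. Atpif1, the inhibitor of ATP synthase, was at 0.03 in KO and -0.35 in WT. The mitochondrial ribosome, measured for 77 genes, had medians of -0.02 in KO and 0.01 in WT with 5 higher and 7 lower in KO and 3 higher and 7 lower in WT, and thus was also mostly within 0.32 log2.

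**Figure D5:**
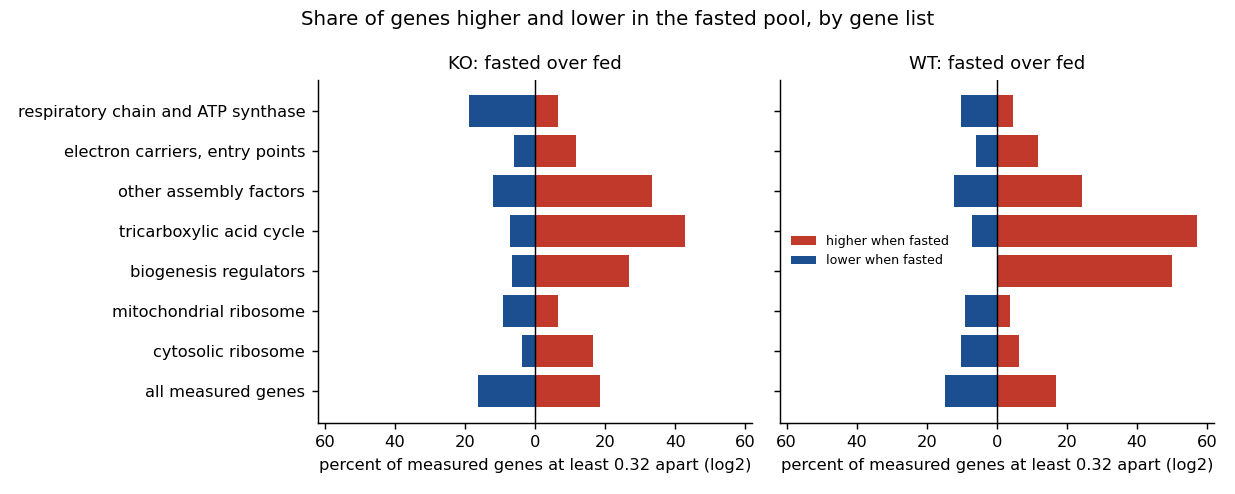
Percent of measured genes at least 0.32 log2 higher (red, right of 0) and lower (blue, left of 0) in the fasted than in the fed pool, for the members, 6 other gene lists and all measured genes, in KO (left) and WT (right). The tricarboxylic acid cycle bar reaches furthest to the right in both genotypes, and the members have more lower than higher genes.

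Genes for cytosolic ribosomal proteins had a median KO over WT log2 ratio of 0.20 in the fasted pools and 0.03 in the fed pools over 79 genes. Without loess, the ribosomal median on the fasted array exceeded that of all genes by 0.62, and the medians of the subunit groups did so by 0.15 (complex II) to 0.32 (complex III). Kupffer cell and macrophage markers differed between genotypes in the fed pools, where all 8 were below 0 in KO over WT (median -0.41, 6 at least 0.32 log2 lower), and between feeding states in KO (median 0.53, 6 higher), against medians of 0.07 for KO over WT when fasted and 0.03 for fasting in WT. Sinusoidal endothelial markers had fasting medians of 0.65 in KO and 0.33 in WT, with 4 of 5 above 0 in each genotype. The other, Kdr, was at -0.74 in KO and -0.58 in WT. Stellate cell markers had fasting medians of -0.18 in KO and -0.33 in WT. All 6 hepatocyte markers were measured in every pool, with KO over WT medians of 0.11 fasted and 0.10 fed. On each array 4 were above 0 and 2 below, the lowest being Apob fasted (-0.63) and Alb fed (-0.37). Fasting medians of the hepatocyte markers were -0.06 in KO and -0.05 in WT. The part of these cell markers in the members' values was not tested.

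Promoter windows of 300 bases, 250 before to 50 after the start, were matched for 76 of the 93 members and searched on both strands for 7 motifs. The NRF1 motif (GCGC, any 2 bases, GCGC), of a factor known to bind respiratory genes, was found in 21 of 76 members (27.6%), against 7.0% of 27025 genes and 14.5% of 9042 measured genes. The ETS motif CCGGAAG, bound by GABP, was found in 19 of 76 members, 9.93% of all genes and 19.8% of measured genes, and the YY1 motif AAGATGGC in 14.5%, 3.19% and 5.35%. The Sp1 motif GGGCGG was in 46.1% of members, 38.2% of all genes and 66.1% of measured genes, and the CCAAT box in 44.7%, 41.1% and 42.5%. The full cAMP response element TGACGTCA, a palindrome related to sites of the CREB family, was in 4 members (Ndufa10, Ndufa11, Ndufb2 and Uqcrfs1), 5.26% against 2.03% of all genes and 3.57% of measured genes.

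Members with the NRF1 motif had median fasting ratios of -0.10 in KO and -0.11 in WT, and those without it of -0.09 and -0.03. In the same order, the medians for GABP were -0.10 and -0.13, against -0.05 and -0.03. For YY1 they were -0.18 and -0.15, against -0.08 and -0.04, and for Sp1 -0.08 and -0.03, against -0.10 and -0.07. For the CCAAT box they were -0.10 and -0.06, against -0.09 and -0.04. For the cAMP response element, found in 4 members, they were 0.09 and 0.20, against -0.09 and -0.08. These differences were not tested. The ERR motif TCAAGGTCA was in 2 members (2.63%, against 0.466% of all genes and 0.365% of measured genes), namely Sdhd and Atp5g3. The ERR match of Sdhd starts at base 37 after its start, and that of Atp5g3 is the one in capitals above. Atp5g3 also had an NRF1 match starting at base 13 after its start, outside the printed bases. Sdhd and Atp5g3 were both above 0 after fasting in KO and WT, as described. Atp5g1 had no match to the NRF1, GABP, YY1, Sp1, ERR or CRE motif in its window. It did hold the CCAAT box, which Atp5g3 held as well. These are matches of letters and not binding sites.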

How the data were processed

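Pooled liver RNA of 4 groups was hybridised to 2 arrays, Cy5 KO and Cy3 WT, per the labels. The authors deposited spot and background intensity per channel from Agilent Feature Extraction 10.10.1.1, whose grid names build mm9, per the file headers. The scanner software's deposited log10 ratio and its error per spot, and the authors' value table of log2 ratios, which equalled those log10 ratios turned to log2 within 0.005, were used for checks and for the error of a spot.

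Median spot signals were corrected with normexp (offset 50) and normalized by loess within arrays and Aquantile between them, in limma 3.58.1 under R 4.3.3. The normexp and loess steps were tested with known changes put into the KO channel of randomly picked spots of the fed array. That test did not cover the scaling between arrays. The 3671 control spots of each array and the outlier spots (197 fasted, 216 fed) were removed. Repeated spots were averaged per probe, and the brightest probe stood for its gene. A gene was measured where at least 50% of its spots were well above background in each channel compared. Probes were named through RefSeq accessions on GRCm38.p6 (26762 of 55681). The number of arrays limits the precision.

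Named genes were, per comparison, the 8 highest and 8 lowest members, complex II, the tissue isoforms, subunit c genes, members opposite on the 2 arrays, up to 4 per list furthest from 0, and Creb3l3. The members and lists were chosen with earlier results of these data known. Other offsets, centrings, probe rules, detection rules and between-array scalings were tried as alternatives. The values of 1 member are not reported here.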

Additional observations from a re-analysis of the deposited data

Results flagged for a closer look

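The genotype ratio of Ndufaf2, an assembly factor of complex I, lay on opposite sides of 0 on the 2 arrays, with log2 KO over WT at -0.18 in the fasted pools and 0.19 in the fed pools. Its fasted minus fed difference of -0.37 was the lowest among 89 members. The difference was not tested, since there was 1 pool per group.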

How the results depend on the processing

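No paired analysis was possible because each group was 1 pool and no replicate numbers exist. Over 1888 values of named genes under 9 alternatives, 1352 moved by less than the SD between repeated spots and 513 moved by more. The other 23 changed sign, counted only where the value lay at least 0.32 log2 from 0 in the processing described above. Smaller values that crossed 0 were counted with the 1352 or the 513. Under the alternatives that kept loess and the scaling between arrays, or replaced them by the scanner software or by quantiles, 102 of 1307 moved. None of the 1307 that lay at least 0.32 log2 from 0 in the processing described above changed sign. Centring on all gene spots without loess gave medians for KO over WT of 0.83 fasted and 1.14 fed with 85 and 88 members past 0.32 log2 (75.8% and 83.7% of all genes), a fasting median of -0.23 in KO and 0.073 in WT, and a difference of -0.28 with 37 members (31.9% of all genes). It turned Ndufb9 fasted to 0.70, Sdhd fed to 0.71, Cox7a1 fed to 0.28 and Creb3l3 fed to 0.31. Centring on measured spots gave 0.33 with 50 members fasted (33.7% of all genes) and 0.43 with 70 fed (44.8%), so that the members then differed between genotypes more often than genes in general and more often than between feeding states (26 in KO and 14 in WT), and Ndufb9 fasted at 0.20. Scanner-processed signals gave 5 members fasted, 4 fed and 5 for the difference (21.4%, 22.1% and 27.6% of all genes), an offset of 10 gave 4 for the difference (23.0%), and leaving out assembly factors and non-subunits gave 1. Without normalization between arrays the fasting medians were 0.50 in KO and 0.50 in WT, against 0.45 and 0.46 for all genes, with 65 and 73 members past 0.32 log2 (66.4% and 67.1% of all genes). Among the named genes defined above, the fasting ratios past 0.32 log2 that changed sign there were, in KO, Atp5e 0.040, Atp5g1 0.073, Atp5j2 0.11, Atp5k 0.060, Ndufa13 0.047, Ndufaf1 0.17, Ndufaf2 0.22, Ndufs5 0.20, Ndufs8 0.27, Ndufv3 0.035 and Sdhb 0.16, and in WT Atp5e 0.13, Atp5g1 0.00868, Atp5j2 0.17, Atp5k 0.14, Ndufa13 0.13, Ndufs5 0.19 and Ndufv3 0.19. Smaller ratios that crossed 0 are not listed. Under that setting the bulk of all genes, and not the members alone, lay above 0, and the cause of this and of the other changes was not tested. Dim members such as Cox4i2, Ndufaf5, Ndufa4l2 and, in the fed pools, Cox6b2 have ratios drawn towards 0 by the offset.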
